A study of Mus musculus with 5 samples.

Results

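Interferon beta and the inflammatory cytokines governed by nuclear factor kappa B (NF-kB) were followed in nuclei from brains of mice whose microglia carried an activating allele of Cgas, the gene of a cytosolic DNA sensor. The set held 10 genes chosen by name: Ifnb1, the cytokine genes Tnf, Il1a, Il1b, Il15 and Il18, the NF-kB subunit genes Nfkb1 and Rela, and the inhibitor genes Nfkbia and Tnfaip3. All 10 were among the 32285 genes counted in each library. Single-nucleus RNA sequencing had been made from 5 mice, 1 library each, of which 2 carried the R241E allele in heterozygous form (R241E, replicates 1 and 2) and 3 had wild-type Cgas (WT, replicates 1 to 3). All 5 mice carried the Tmem119-creERT2 driver, a tamoxifen-dependent recombinase expressed mainly in microglia and in part of the brain's macrophages, and tamoxifen switched the allele on in young adult mice. The labels give hippocampus as the tissue and microglia as the cell type, while the extraction text names brain without a region. The study's results describe heterozygous controls and the sample titles wild-type ones, and the titles were followed. A treatment text on aged mice accompanies every sample but no label assigns it, so it was not used.

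The files held 9748 nuclei, of which 9505 passed the limits on genes, UMIs (unique molecular identifiers, each standing for 1 captured RNA molecule) and mitochondrial reads. Clustering gave 24 clusters in 12 classes named from marker genes, and 5382 nuclei in 5 clusters were microglia. Microglia made up 41.9% and 38.6% of nuclei in R241E and 60.4%, 74.9% and 64.7% in WT, although the sort removed only nuclei with neuronal (NeuN) or, by the methods, oligodendrocyte-lineage protein. Classes in which each library had 20 nuclei or more were microglia, border-associated macrophages, astrocytes, oligodendrocytes, neurons, fibroblasts and mural cells. Microglial UMIs numbered 3183762 and 1445318 in R241E and 2473324 to 4337318 in WT, and at most 2 barcodes were shared between any pair of libraries. Each mouse was 1 replicate, and CPM below are UMIs of a gene scaled to 1e+06 UMIs of the class in that library.

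Cyclic GMP-AMP synthase detects DNA in the cytosol and signals through the adaptor STING along a pair of branches. In the interferon branch the kinase TBK1 activates the transcription factor IRF3, which together with NF-kB switches on Ifnb1, and the secreted interferon beta then induces interferon-stimulated genes in the same and in neighbouring cells. In the NF-kB branch, dimers such as RelA with p50 (from Nfkb1) are freed from their inhibitor IκBα (Nfkbia) and transcribe cytokine genes such as Tnf and Il1b, together with Nfkbia and Tnfaip3, whose products end the signal. Microglia, the resident macrophages of the brain, are a known source of these cytokines.

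The start regions of these genes differ in the motifs they hold, and 4 are shown because the genotype comparison turned on them or because they stand for 1 motif alone. RefSeq promoters of 250 bases before the annotated start (build GRCm38.p6) were available for 8 of the 10 genes. An NF-kB motif (GGANNTTCC, both strands) was in 3.59% of all 32851 promoters of this length, an interferon regulatory factor (IRF) motif (AANNGAAA, both strands) in 21.3%, and both in 0.718%. Among the 8 genes the NF-kB motif stood in 4 (Ifnb1, Tnf, Nfkbia, Tnfaip3) and the IRF motif in 3 (Ifnb1, Il18, Il1b). Ifnb1 alone had both, with IRF matches at -159, -139 and -126 and an NF-kB match at -115, counted in bases from the start to the first base of the match. Tnf had its NF-kB match at -212, Nfkbia at -178 and -29, and Il18 an IRF match at -87. Each sequence is written 5′ to 3′ on the gene's strand with the matches in capitals: Ifnb1 from chr4:88522795-88523044 (minus strand), Tnf from chr17:35202008-35202257 (minus), Nfkbia from chr12:55492648-55492897 (minus) and Il18 from chr9:50554450-50554699 (plus). A match is a description of the letters and was not tested as a binding site.
Ifnb1: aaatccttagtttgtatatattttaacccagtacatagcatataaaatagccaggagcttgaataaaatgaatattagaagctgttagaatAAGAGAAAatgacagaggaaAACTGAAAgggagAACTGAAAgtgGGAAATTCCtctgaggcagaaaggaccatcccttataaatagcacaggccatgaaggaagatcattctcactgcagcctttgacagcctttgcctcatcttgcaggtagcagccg
Tnf: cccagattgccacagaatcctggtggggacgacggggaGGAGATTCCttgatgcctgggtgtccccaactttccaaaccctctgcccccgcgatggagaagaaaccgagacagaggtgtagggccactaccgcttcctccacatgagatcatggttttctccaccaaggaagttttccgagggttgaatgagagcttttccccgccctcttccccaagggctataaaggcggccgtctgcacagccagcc
Nfkbia: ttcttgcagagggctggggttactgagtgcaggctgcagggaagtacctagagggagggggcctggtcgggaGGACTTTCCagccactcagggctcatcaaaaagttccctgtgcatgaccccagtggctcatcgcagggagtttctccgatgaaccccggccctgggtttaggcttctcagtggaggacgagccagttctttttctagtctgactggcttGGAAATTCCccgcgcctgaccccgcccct
Il18: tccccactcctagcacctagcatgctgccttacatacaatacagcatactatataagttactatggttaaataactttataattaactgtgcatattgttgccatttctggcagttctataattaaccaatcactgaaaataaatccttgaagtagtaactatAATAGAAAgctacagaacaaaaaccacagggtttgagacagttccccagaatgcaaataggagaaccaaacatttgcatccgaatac

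Ifnb1 transcripts were found in R241E nuclei and in no WT nucleus, and nearly all were microglial. Ifnb1, which encodes interferon beta (chr4:88522025-88522794, a short gene on the minus strand), had 23 UMIs in 14 nuclei of the whole series, and 95.7% of these UMIs were in microglia. Microglial Ifnb1 measured 4.71 CPM in R241E replicate 1, 4.84 CPM in R241E replicate 2 and 0 CPM in each of the 3 WT libraries, so the groups did not overlap. The 3 WT libraries together had 0 of 10159499 microglial UMIs, which allows up to 0.295 CPM (3 counts over the group). The level over both R241E libraries, 4.75 CPM from 22 UMIs, was 16.1-fold this limit. The limit covers counting error in WT only, and the counting error of the R241E UMIs is not in this fold. In the edgeR quasi-likelihood test on UMIs summed per library the adjusted p was 0.000795. Ifnb1 passed the filter on low counts only through the R241E libraries, so that it had to differ once tested, and the call adds nothing to the UMIs. Counts of members called are therefore given without Ifnb1 in the text that follows. It could not be tested without R241E replicate 1 or without the nuclei of cluster 15, described next. Of all 12735 genes tested in microglia, 9.23% were called, 6% in the higher and 3.23% in the lower direction, and 20.7% had an unadjusted p under 0.05.

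The nuclei that held Ifnb1 were few. There were 13 such microglia, 8 in R241E replicate 1 and 5 in R241E replicate 2, and 8 of the 13 had a single UMI of the gene, the most being 4. One further UMI lay in a neuron of 889 UMIs in R241E replicate 1. All 13 microglia fell in 1 cluster of 226 nuclei, cluster 15, whose leading genes were interferon-stimulated (Ifi204, Ifi207, Ifi213, Epsti1, Ccl12 and Oas2). That cluster took 15.5% and 11.1% of microglia in R241E and 0.432%, 0.272% and 0.275% in WT. Within it, Ifnb1 was detected in 8 of 156 nuclei of R241E replicate 1 (5.13%, exact 95% binomial interval 2.24 to 9.85) and in 5 of 58 nuclei of replicate 2 (8.62%, 2.86 to 19.0).

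After each nucleus was thinned to 1000 UMIs, the 13 nuclei held 8 to 22 UMIs (median 17) of the 28 genes of an interferon list that the study used, against a median of 8 in the other 201 R241E nuclei of the same cluster. Of the 13 nuclei, 11 also held Il15, 7 Nfkb1, 6 Cxcl10, 5 Il18, 5 Tnf, 3 Tnfaip3, 2 Il1a, 2 Rela, 1 Nfkbia and 0 Il1b (Cxcl10, an interferon-induced chemokine, was added after its values were seen). All 5 with Tnf came from R241E replicate 1. Tnf was in 22 of the 201 other nuclei (10.9%). Over all 214 R241E nuclei of cluster 15, the 13 included, Nfkb1 was in 159, Il15 in 101, Il18 in 86 and Nfkbia in 37. Il1a was in 34 of them, Tnfaip3 in 31, Rela in 29 and Il1b in 2. Among 20 further interferon genes, which encode the alpha, epsilon, kappa, zeta, gamma and lambda interferons, 3 had a UMI in microglia: Ifnk, Ifnz and Ifng had 1 each. The whole series held 55 UMIs of Ifnk, 1 of Ifnz and 14 of Ifng, so Ifnb1 was the interferon gene with the most UMIs in microglia.

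**Figure D1:**
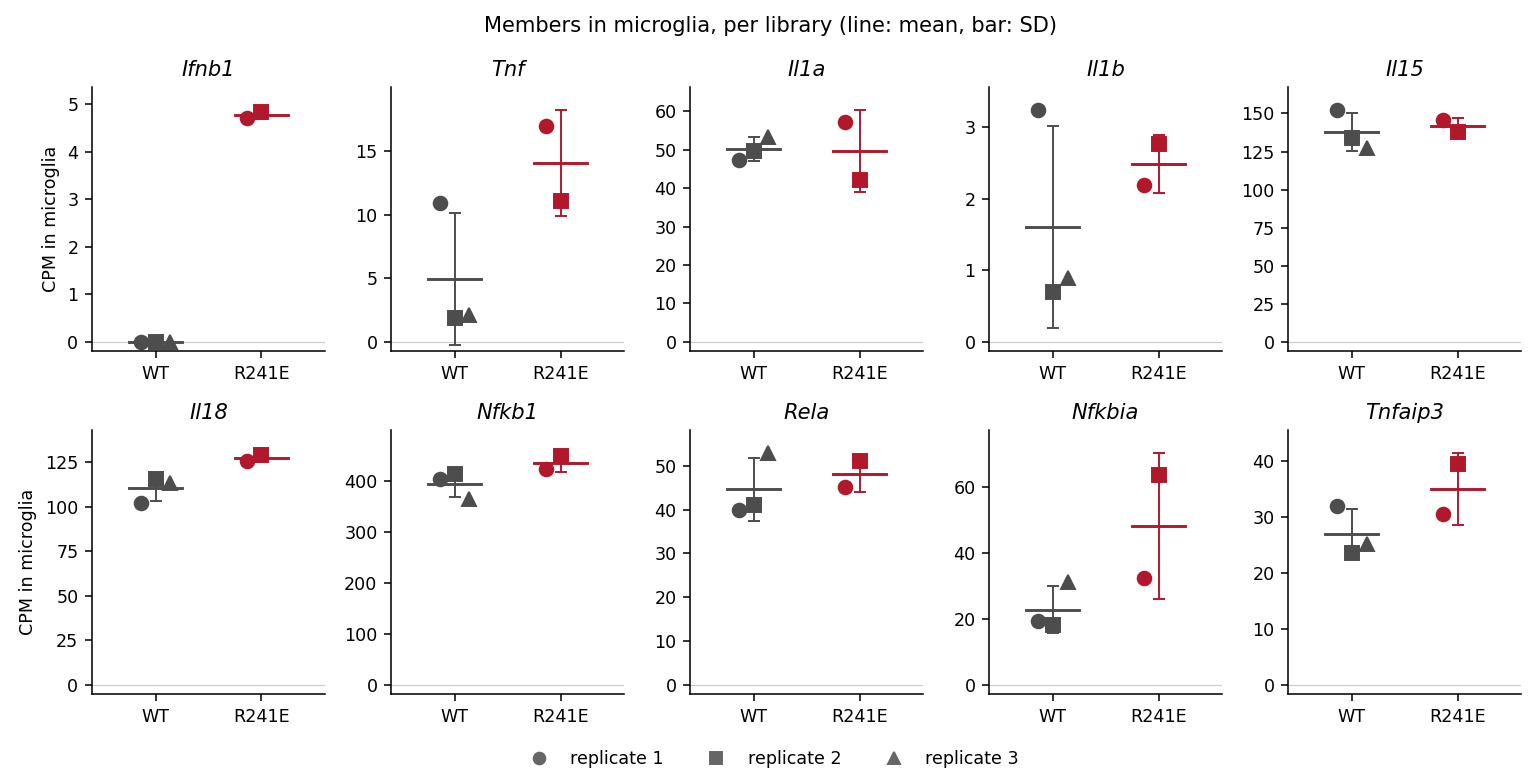
CPM in microglia (vertical axes, each starting at 0) of the 10 genes in WT and R241E libraries, with a symbol for each replicate, a line for the mean and a bar for the SD. Ifnb1 is at 0 in all WT libraries and between 4.71 and 4.84 in R241E, Tnf of WT replicate 1 (10.9) sits just under that of R241E replicate 2 (11.1), and Nfkbia of R241E replicate 2 (63.7) stands above the other 4 libraries.

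Tnf was the cytokine gene with the largest difference, and that difference did not pass the test. Tnf (chr17:35199367-35202007), which encodes tumour necrosis factor, stood at 17.0 and 11.1 CPM in R241E microglia against 10.9, 1.84 and 2.09 CPM in WT microglia (UMIs 54 and 16 against 27, 8 and 7). The groups did not overlap, but WT replicate 1 lay next to R241E replicate 2, and 38% of all genes tested did not overlap either, 20.3% with R241E higher. The means were 14.02 ± 4.17 CPM (SD, n = 2) and 4.95 ± 5.17 CPM (SD, n = 3), and edgeR gave a log2 fold change of 1.74 with an SE of 0.52 (adjusted p = 0.0502). Of the WT libraries only replicate 1 reached the filter on low counts, so Tnf passed it only with the R241E libraries. Without WT replicate 1 the log2 fold change was 2.87 and Tnf was called (edgeR adjusted p = 0.000543). In that fit no WT library reached the filter, so the call adds nothing to the levels. Without R241E replicate 1 the log2 fold change was 1.32. Tnf was called in 4 of 12 alternatives, among them limma-voom and the fit without a filter on low counts (edgeR adjusted p = 4.43e-06).

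Most Tnf UMIs lay in different microglial clusters in the R241E libraries. In R241E replicate 1, 44 of the 54 UMIs (81.5%) were in the interferon-led cluster 15, at 79.4 CPM. In R241E replicate 2, only 3 were there (15.7 CPM), and 11 of 16 UMIs (68.8%) were in cluster 8, a cluster led by the complement genes C1qb, C1qc and C1qa. In WT replicate 1, 19 of 27 UMIs (70.4%) were in cluster 2, which held 78.7% of the microglia of that library. Within cluster 15 the share of nuclei with Tnf was 15.4% (24 of 156, exact 95% binomial interval 10.1 to 22.0) in R241E replicate 1 and 5.17% (3 of 58, 1.08 to 14.4) in replicate 2. Leaving out cluster 15, an alternative chosen after seeing the data, brought the log2 fold change of Tnf to 0.48 (edgeR adjusted p = 0.792).

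Few nuclei carried the Tnf signal. It was detected in 32 and 10 microglia of R241E and in 21, 6 and 7 of WT, with 1 to 5 UMIs at most in a nucleus. Thinned to 1000 UMIs, the mean shares were 1.25% ± 0.0701 (SD, n = 2) for R241E against 0.646% ± 0.696 (SD, n = 3) for WT (two-sided exact permutation p = 0.4, where 0.1 is the lowest value possible), and no thinned oligodendrocyte of 367 in R241E or 276 in WT held a Tnf UMI. Lymphocytes also held Tnf, at 84.7 and 33.8 CPM in R241E against 0, 0 and 58.3 CPM in WT, from 25, 3, 0, 0 and 3 UMIs, and they numbered 121 and 35 nuclei in R241E and 3, 7 and 27 in WT. The summed level of 10 lymphocyte markers within microglia was 67.5 and 63.7 CPM in R241E and 54.0 to 55.8 CPM in WT, most of it from Il7r. Nkg7, a gene of cytotoxic lymphocytes, was at 6.28 and 1.38 CPM in R241E microglia and 0, 0 and 0.597 CPM in WT microglia, and the T cell gene Cd3e was at 0.628 and 1.38 CPM and 0 in WT. Klrb1c, at 198 CPM in R241E lymphocytes, was at 0 in both R241E libraries. Ms4a1, also at 0, was at 0 in the R241E lymphocytes as well. The part of lymphocyte RNA in the microglial Tnf level was not tested.

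**Figure D2:**
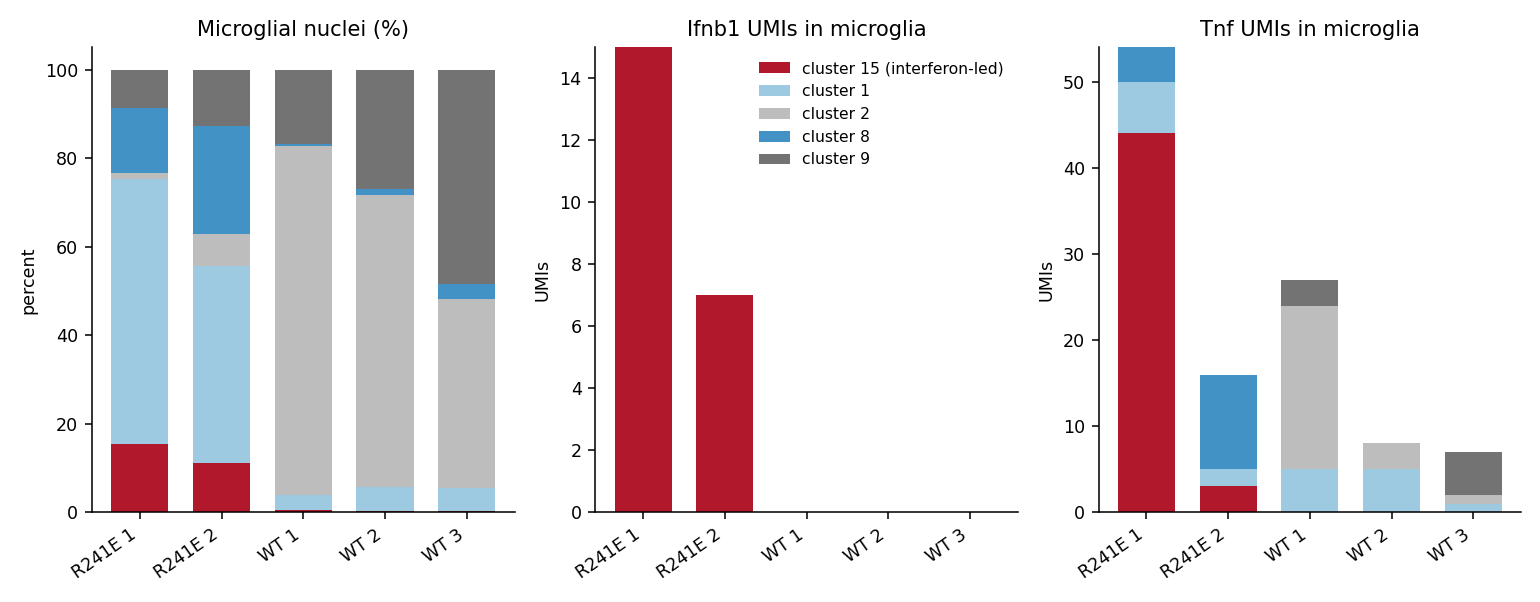
Share of microglial nuclei (percent), Ifnb1 UMIs and Tnf UMIs by microglial cluster, stacked for each of the 5 libraries. All 22 microglial Ifnb1 UMIs fall in cluster 15, whereas cluster 15 holds 44 of 54 Tnf UMIs in R241E replicate 1 and 3 of 16 in R241E replicate 2.

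The IL-1 cytokines, which start fever and acute inflammation, showed no call in microglia. Il1a (chr2:129299609-129310186), which encodes interleukin 1 alpha, was at 57.2 and 42.2 CPM in R241E and 47.3, 49.6 and 53.5 CPM in WT, so the R241E libraries lay on both sides of WT (edgeR, log2 fold change 0.01, SE 0.15, adjusted p = 0.985). It was the most microglial of the cytokines, with 96.4% of its 782 UMIs in microglia, which made up 50.5% of all UMIs kept. Il1b (chr2:129364569-129371164), which encodes interleukin 1 beta, was at 2.20 and 2.77 CPM in R241E microglia and 3.23, 0.692 and 0.896 CPM in WT, from 7, 4, 8, 3 and 3 UMIs. Those counts fell below the filter, and the ratio of the pooled levels was 1.72 (exact 95% interval for counting error 0.708 to 4.09). Only 36.2% of the 69 Il1b UMIs of the series were microglial. The small class of monocytes or neutrophils, which also carried antigen-presentation genes such as Cd74 and H2-Aa, held Il1b at 93.2 and 58.9 CPM in R241E against 50.9, 0 and 167 CPM in WT, from 14, 4, 2, 0 and 20 UMIs, and had too few nuclei for a test.

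Il15 and Il18 were the most abundant cytokine transcripts by UMIs, and neither passed the test between genotypes. Il15 (chr8:82331624-82403252), whose product sustains natural killer and memory T cells, was at 145 and 138 CPM in R241E microglia and 152, 134 and 128 CPM in WT. The groups overlapped (edgeR, log2 fold change 0.03, SE 0.11, adjusted p = 0.922). Il18 (chr9:50554700-50581841), whose product is matured by caspase-1 and drives interferon gamma, was at 126 and 129 CPM in R241E and 102, 116 and 113 CPM in WT. These did not overlap, and the log2 fold change of 0.18, with an SE of 0.11, was not called (edgeR adjusted p = 0.378). Thinned shares of microglia with the transcript were 12.6% ± 0.293 against 11.6% ± 1.48 for Il15 (exact permutation p = 0.4) and 10.6% against 10.2% for Il18 (exact permutation p = 0.5).

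Several partners of these cytokines were called. Of 18 genes of cytokine receptors and processing, 15 could be tested, 6 were higher and 1 was lower, against 6% and 3.23% of all genes tested. The median log2 fold change of the 15 was 0.55 beside a median of -0.005 over all genes tested. Il2rg, the receptor chain shared by interleukin 15 and related cytokines, averaged 17.0 CPM in R241E against 1.33 CPM in WT (edgeR log2 fold change 3.55). In WT it lay at 0.809 to 1.79 CPM and passed the filter on low counts only through the R241E libraries. Its call, one of the 6, therefore adds nothing to these levels. Il15ra, which presents interleukin 15, averaged 85.8 against 46.7 CPM (0.83, edgeR adjusted p = 0.000756). Casp4, which encodes an inflammatory caspase, averaged 113 against 44.9 CPM (1.29), and the decoy receptor gene Il1r2 12.4 against 3.94 CPM (1.71, edgeR adjusted p = 0.00309). Nlrp3, the sensor of the inflammasome that matures interleukins 1 beta and 18, was the gene that fell, from 83.4 CPM in WT to 49.6 CPM in R241E (log2 fold change -0.72, edgeR adjusted p = 0.0107). Il1r2 lost its call without R241E replicate 1 (log2 fold change 1.39) and Nlrp3 without R241E replicate 2 (-0.60).

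Neither NF-kB subunit gene passed the test between genotypes. Nfkb1 (chr3:135584655-135691969), which encodes p105 and its product p50, was at 423 and 448 CPM in R241E microglia and 403, 412 and 365 CPM in WT. R241E lay just above WT, and the log2 fold change of 0.13, with an SE of 0.10, was not called (edgeR adjusted p = 0.533). Rela (chr19:5637442-5648134), which encodes the transactivating subunit p65, was at 45.2 and 51.2 CPM in R241E and 40.03, 41.0 and 52.9 CPM in WT, overlapping (edgeR, log2 fold change 0.07, SE 0.16, adjusted p = 0.854). Of the 3 other subunit genes none was called by edgeR, DESeq2 or limma-voom, although 2 had an unadjusted p under 0.05. Relb averaged 45.2 CPM in R241E against 31.3 CPM in WT (log2 fold change 0.54, edgeR adjusted p = 0.0555), and Rel 254 against 203 CPM (0.30, edgeR adjusted p = 0.0745).

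Nfkbia rose, with a wide spread between the R241E libraries. Nfkbia (chr12:55489409-55492647), the gene of IκBα, was at 32.4 and 63.7 CPM in R241E microglia and 19.4, 18.0 and 31.1 CPM in WT. R241E replicate 1 lay just above WT replicate 3, while R241E replicate 2 stood apart. The means were 48.0 ± 22.1 (SD, n = 2) and 22.8 ± 7.17 CPM (SD, n = 3), and the log2 fold change of 0.96, with an SE of 0.27, was called (edgeR adjusted p = 0.0337). Nfkbia kept its call in 8 of 12 alternatives. Without R241E replicate 2 the log2 fold change was 0.49 (edgeR adjusted p = 0.387), without WT replicate 1 it was 0.88 (0.118), without WT replicate 2 it was 0.81 (0.134) and without the interferon-led cluster it was 0.74 (0.151), the values in brackets being edgeR adjusted p. At 1000 UMIs a nucleus, Nfkbia was seen in 4.52% ± 2.13 (SD, n = 2) of R241E and 2.06% ± 0.740 (SD, n = 3) of WT microglia (exact permutation p = 0.1, the lowest value possible), and in 1.45% of R241E and 0.560% of WT oligodendrocytes. Immediate early genes, which respond to tissue handling, summed to 409 and 436 CPM in R241E microglia and 334 to 387 CPM in WT, with 2 of the 10 tested called higher by edgeR and 0 by DESeq2 (Klf6 at 51.9 against 33.6 CPM and Junb at 133 against 96.5 CPM). Both lost their call when any library other than WT replicate 3 was left out. Within microglia, the 7 oligodendrocyte markers summed to 219 and 306 CPM in R241E and 130 to 145 CPM in WT, and the 8 markers of border-associated macrophages to 98.3 and 143 CPM against 211 to 240 CPM. The 9 markers of monocytes or neutrophils summed to 738 and 643 CPM against 562 to 579 CPM, and the 7 endothelial markers to 30.5 and 30.4 CPM against 39.9 to 43.6 CPM. Nfkbia averaged 209.5 CPM in R241E endothelial cells, 152 CPM in monocytes or neutrophils, 117 CPM in lymphocytes, 57.3 CPM in mural cells and 55.3 CPM in border-associated macrophages, above its mean in microglia, and 11.6 CPM in oligodendrocytes. The parts of handling and of other cells' RNA in the Nfkbia level were not tested.

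Tnfaip3, the other feedback gene, differed by less. Tnfaip3 (chr10:19000910-19015410), which encodes the ubiquitin-editing enzyme A20, was at 30.5 and 39.4 CPM in R241E microglia and 31.9, 23.5 and 25.1 CPM in WT. The groups overlapped at WT replicate 1, and the log2 fold change of 0.34, with an SE of 0.19, was not called (edgeR adjusted p = 0.343). Of 15 further inhibitor and feedback genes 14 were tested and 0 were called by edgeR, DESeq2 or limma-voom, with 3 at an unadjusted p under 0.05 and a median log2 fold change of 0.13. The closest were Nfkbiz (40.2 against 29.5 CPM, log2 fold change 0.45, edgeR adjusted p = 0.103) and Bcl3 (8.01 against 3.96 CPM, 1.02, edgeR adjusted p = 0.115), both of which encode nuclear IκB proteins.

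The interferon list was called throughout, while most members other than Ifnb1 were not called. All 28 genes of the interferon list, which the study took from earlier publications, were called higher in R241E microglia, with a median log2 fold change of 4.18. Without a filter on low counts all 28 were called as well, with a median of 4.17. In WT, 8 of the 28 genes were under 1 CPM and passed the filter on low counts only through the R241E libraries. So did at least Oas2, Ifit1 and Ifi27l2a, at 2.17, 1.38 and 1.77 CPM over the WT libraries. The calls of these genes in the filtered fit add nothing to their levels. The count of calls and the median include them. Of the 8 genes, Ifi44 had no UMI in WT. Its level of 28.1 CPM over both R241E libraries was 95.1-fold the limit of 3 counts over the WT group. The counting error of R241E is not in this fold, and the median was the same with Ifi44 at that value. Oas2, a sensor of double-stranded RNA, averaged 172 CPM in R241E against 2.21 CPM in WT, Ifi204 448 against 14.7 CPM, Usp18 178 against 11.4 CPM and Nlrc5 214 against 14.9 CPM. The Ifi204 value is uncertain because close copies of the gene share reads. The 8 tested cytokine, subunit and inhibitor genes other than Ifnb1 all had a log2 fold change above 0, from 0.01 (Il1a) to 1.74 (Tnf), with a median of 0.16 and 1 call. Of all genes tested, 9.23% were called. These 8 include the subunit genes Nfkb1 and Rela, and Il18 had no NF-kB match in its promoter, so the sets are not alike. Genes known as NF-kB targets are given separately below.

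The medians were also taken library by library. Against the WT mean on the log2(CPM + 1) scale, the median difference of the interferon list was 3.72 in R241E replicate 1 and 3.51 in replicate 2. That of the 8 cytokine, subunit and inhibitor genes was 0.19 and 0.22. Single WT libraries differed from the WT mean by -0.06 to 0.05 on the interferon list and by -0.07 to -0.02 on the 8 genes.

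Part of the genes known as NF-kB targets rose. Of 34 listed, 21 could be tested, 9 were called higher and 0 lower (7 by DESeq2), against 6% and 3.23% of all genes tested. The median log2 fold change of the 21 was 0.77. Cd40, a co-stimulatory receptor of antigen-presenting cells, averaged 12.8 CPM in R241E against 0.645 CPM in WT (log2 fold change 4.34, edgeR adjusted p = 1.81e-05). Ccl2, a chemokine that attracts monocytes, averaged 12.7 against 0.353 CPM (4.77, edgeR adjusted p = 4.33e-05), the maturation marker Cd83 52.6 against 21.8 CPM (1.25) and the adhesion molecule Vcam1 13.1 against 1.88 CPM (2.70), whose call was lost without cluster 15 (1.85). In single WT libraries Cd40 and Ccl2 lay at 0.896 CPM or less and Vcam1 at 1.15 to 3.28 CPM. These genes passed the filter on low counts only through the R241E libraries, so their calls add nothing to the levels. The count of calls and the median include them. Cd83, at 20.3 to 23.6 CPM in WT, passed the filter in both groups. Cd40 and Ccl2 are also known to respond to interferon. Il6, the textbook NF-kB cytokine, was at 12.6 and 13.1 CPM in R241E and 14.6, 9.91 and 15.8 CPM in WT, overlapping (log2 fold change -0.06, edgeR adjusted p = 0.940), a gene chosen after its values were seen. Among 26 kinases and adaptors of the pathway 25 were tested, 1 was called by edgeR and 0 by DESeq2, and the median was 0.11. The 1 called was Traf3, an adaptor that also serves the interferon branch, at 176 against 132 CPM (log2 fold change 0.41, edgeR adjusted p = 0.0460), and its call was lost without R241E replicate 1 (0.21), WT replicate 1 (0.37) or WT replicate 3 (0.37). Of 10 genes between DNA sensing and the interferon response, 9 were tested and 1, the transcription factor gene Irf1, was called at 61.8 against 24.3 CPM (1.33).

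**Figure D3:**
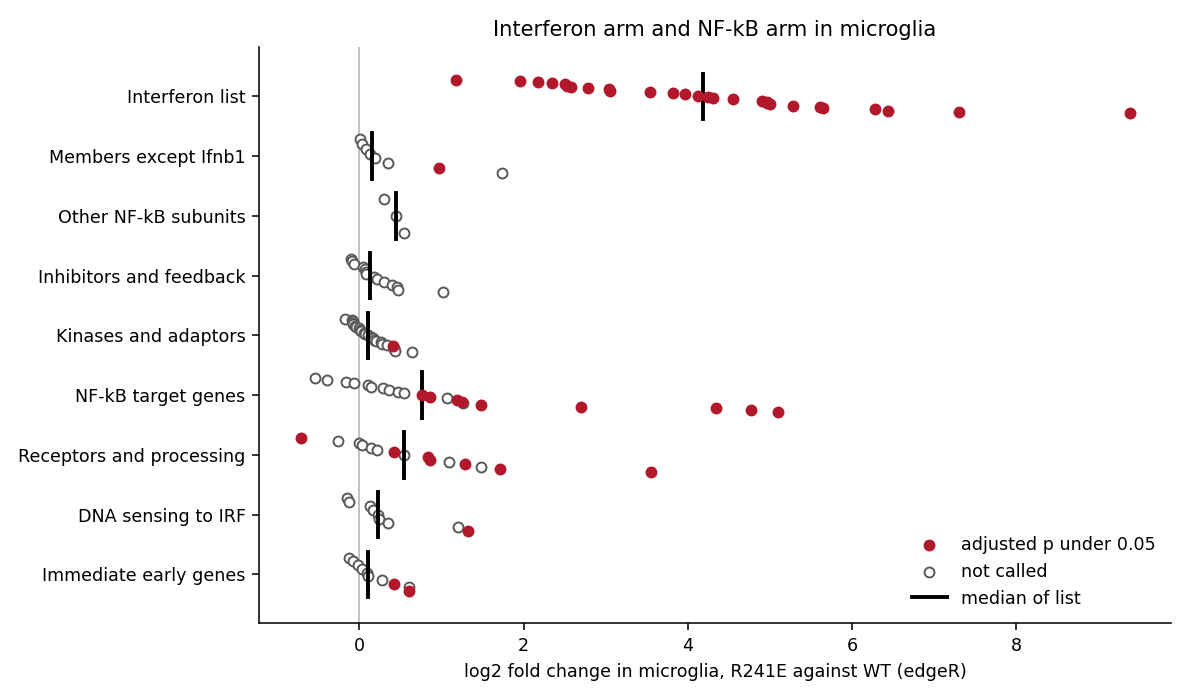
Log2 fold change in microglia, R241E against WT, from edgeR (horizontal axis) for every tested gene of each list, with calls filled and the list's median as a black bar. The interferon list has a median of 4.18 with all genes called (its right-most point, Ifi44, had no UMI in WT, so that its place is a fitted value), the members other than Ifnb1 a median of 0.16 with 1 call, and the NF-kB targets a median of 0.77 with 9 calls. Among these targets, Cd40, Ccl2 and Vcam1 passed the filter on low counts only through the R241E libraries. Genes of the interferon list, among them the 8 under 1 CPM in WT, did so too.

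The members were then compared between interferon-high microglia and the other microglia of the same mouse. A nucleus was interferon-high with at least 3 UMIs of the interferon list after thinning to 1000 UMIs, which held for 448 and 174 nuclei of R241E (44.9% and 34.9%) and for 25, 41 and 42 nuclei of WT (2.77%, 2.83% and 3.02%). No member was part of that list, and the fit over both sums of each library kept the library as a block. Of 11456 genes tested, 1.7% were called, 1.47% being higher in interferon-high nuclei. Of the members other than Ifnb1, 8 were tested and 2, Tnf and Il15, were called higher. Tnf passed the filter on low counts only through the interferon-high nuclei, so its call adds nothing to its levels. Ifnb1 was at 10.4 and 13.2 CPM in the interferon-high nuclei of R241E and at 0 CPM in the other R241E microglia and in both kinds of WT nuclei, so it too passed the filter only through the group where it is high.

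Tnf stood at 29.1 CPM in interferon-high against 6.92 CPM in other microglia of R241E replicate 1 and at 15.1 against 6.70 CPM in R241E replicate 2. In WT it was at 49.4 against 10.03 CPM in replicate 1 (3 UMIs in the interferon-high nuclei) and at 0 against 1.90 and 2.20 CPM in the other two, where a count of 0 allows up to 26.2 and 28.2 CPM. It was higher in both R241E libraries. The 3 UMIs of WT replicate 1 lay in 1 nucleus of 25, where 3 counts are 49.4 CPM, and the other WT libraries gave no direction. Over all 5 libraries the log2 fold change was 1.67 (edgeR adjusted p = 0.0237), a call that adds nothing to these levels because of the filter. The call was lost without R241E replicate 1 (1.25, edgeR adjusted p = 0.939), without R241E replicate 2 (1.81, edgeR adjusted p = 0.131) and without WT replicate 1 (1.595, edgeR adjusted p = 0.0979).

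Il15 was higher in the interferon-high nuclei of all 5 libraries. Its levels were 169 against 125 CPM and 179 against 115 CPM in R241E, and 165 against 153, 244 against 131 and 141 against 128 CPM in WT. The WT interferon-high values rest on 10, 28 and 15 UMIs, so WT replicates 1 and 3 give no clear direction. The log2 fold change was 0.48 (edgeR adjusted p = 0.0186), and the call was lost without R241E replicate 1 (0.52, edgeR adjusted p = 0.241), without R241E replicate 2 (0.42, edgeR adjusted p = 0.540) and without WT replicate 2 (0.43, edgeR adjusted p = 0.0910). In cluster 15 of R241E it was at 242 and 194 CPM.

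Il18 was at 152 against 104 CPM and 162 against 110 CPM in R241E, and at 132 against 102, 122 against 115 and 103 against 113 CPM in WT. It was higher in interferon-high nuclei of 4 of 5 libraries and was not called over all 5 (log2 fold change 0.40, edgeR adjusted p = 0.164). Within the R241E libraries alone it was called (0.57, edgeR adjusted p = 0.00576), but the difference of that difference between genotypes was not (0.60, unadjusted p = 0.0519 and adjusted p = 0.844, both from edgeR). No member was called in that test, which called 0.0349% of genes.

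The NF-kB subunits and inhibitors were not called in the split. Nfkbia was at 40.9 against 25.4 and 73.4 against 50.3 CPM in R241E and at 82.3 against 18.0, 17.5 against 17.9 and 37.6 against 31.1 CPM in WT (log2 fold change 0.65, edgeR adjusted p = 0.257). R241E replicate 2 thus exceeded R241E replicate 1 in both kinds of nuclei. Tnfaip3 had a log2 fold change of 0.58 (edgeR adjusted p = 0.467), Rela 0.37 (0.745), Il1a 0.15 and Nfkb1 0.11. Among the other lists Casp4 (0.83), Cd40 (3.30), Ccl2 (3.14) and Ccl4 (1.39) were called higher, the last named after its value was seen. Ccl4 was higher in R241E only, at 56.8 against 9.23 and 47.1 against 17.9 CPM. In WT it was at 0 against 16.7, 0 against 19.0 and 9.40 against 11.6 CPM, from 0, 0 and 1 UMIs in interferon-high nuclei, which give no direction. Ccl2 was at 17.3 and 41.4 CPM in those nuclei of R241E and 0 in WT, and passed the filter only through R241E. Without the nuclei of cluster 15, an alternative chosen after seeing the data, no member was called, with Tnf at 0.34, Il15 at 0.17 and Il18 at 0.23 (edgeR adjusted p = 0.999 each), and 20 of 10232 genes were called.

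**Figure D4:**
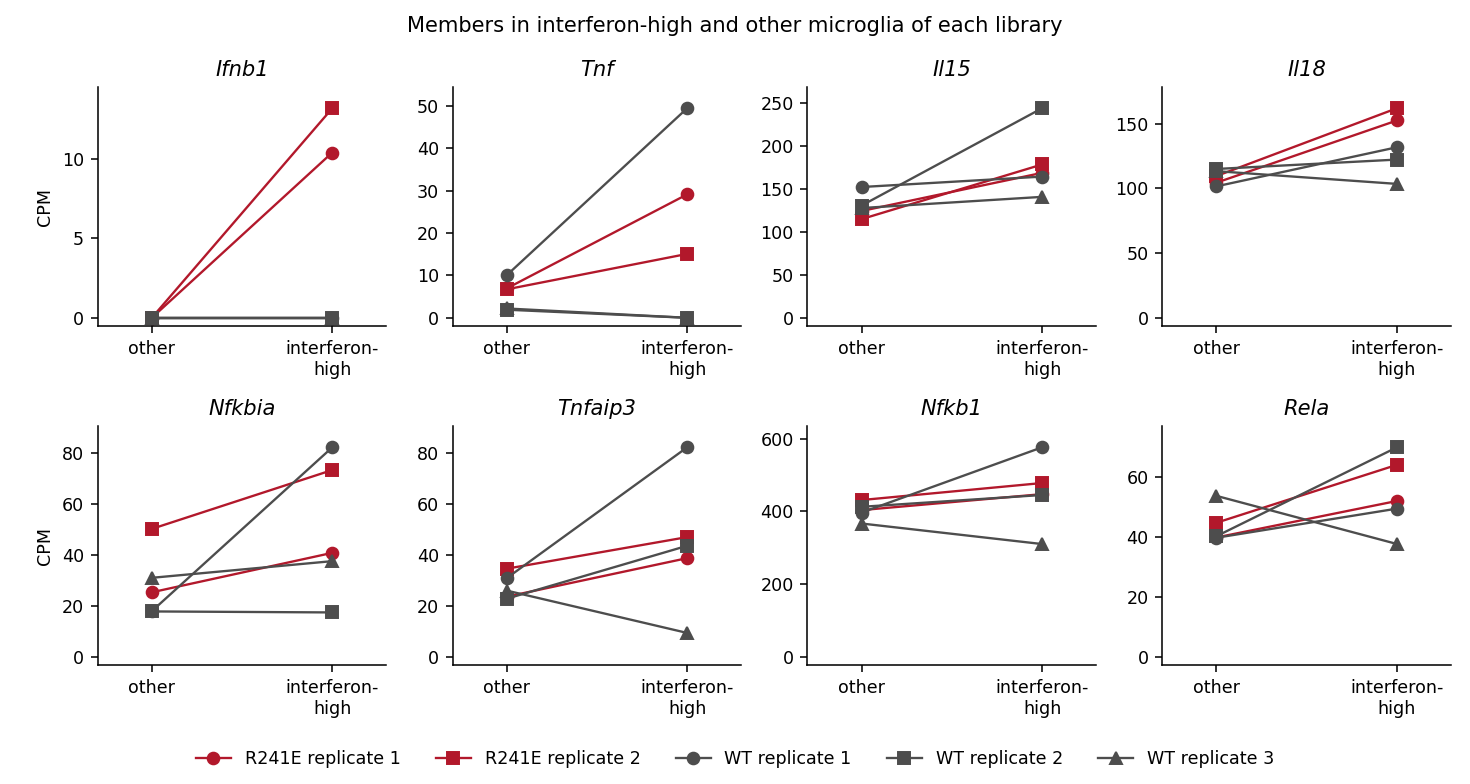
CPM of 8 members in interferon-high and in other microglia of each library (lines join both values of a library; vertical axes start at 0). Il15 is higher in all 5 libraries, in WT from 10, 28 and 15 UMIs in interferon-high nuclei. Ifnb1 is higher in the R241E libraries only. Tnf is higher in both R241E libraries and in WT replicate 1, where 1 of 25 interferon-high nuclei holds all 3 of its UMIs.

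Outside microglia the members had different homes. Among the 7 classes with enough nuclei for a test, in WT, Il15 was highest in border-associated macrophages, the macrophages of vessels and meninges, at 260 CPM (range 229 to 320), above microglia at 138 CPM (128 to 152), and both lay above fibroblasts at 65.5 CPM (56.0 to 79.7), which overlapped astrocytes. Il18 was at 203 CPM (138 to 252) in astrocytes, 144 CPM (88.6 to 189) in oligodendrocytes and 111 CPM (102 to 116) in microglia, neighbours whose ranges overlapped. Il1a was at 50.1 CPM in microglia and at most 8.40 CPM in the other 6 classes tested. Nfkb1 was at 393 CPM in microglia and 319 CPM in border-associated macrophages, with overlapping ranges, and lowest in oligodendrocytes at 62.4 CPM. Tnfaip3 was at 26.8 CPM in microglia against 8.71 CPM in border-associated macrophages. Nfkbia in mural cells at 39.8 CPM, fibroblasts at 25.1 CPM and microglia at 22.8 CPM overlapped. Tnf was at 8.33 CPM in border-associated macrophages (4 UMIs) and 4.95 CPM in microglia, overlapping. The small classes held more of some members. Nfkbia was at 295 CPM (235 to 377, from 20 UMIs) in WT endothelial cells, 131 CPM in monocytes or neutrophils and 111 CPM in lymphocytes, Il15 was at 211 CPM in endothelial cells (13 UMIs), and Nfkb1 was at 462 CPM in monocytes or neutrophils. Tnf was at 19.4 CPM in WT lymphocytes (3 UMIs) and 16.9 CPM in monocytes or neutrophils (4 UMIs). Class levels are descriptions, since the classes were clustered on the same counts.

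No member that could be tested was called outside microglia. In the 6 other classes 17 tests of members were possible, and 0 were called by edgeR, DESeq2 or limma-voom. The tests covered Nfkb1, Il18, Il15 and Rela, each in some of the classes, and Nfkbia in astrocytes only. Ifnb1, Tnf, Il1a, Il1b and Tnfaip3 had too few counts for a test in any of these classes. The share of all genes called there ran from 0% in fibroblasts and mural cells and 0.0115% in neurons to 0.285% in oligodendrocytes, 0.417% in astrocytes and 0.946% in border-associated macrophages. In neurons, 1 member had an unadjusted p under 0.05: Il18 was at 23.6 and 16.8 CPM in R241E and 36.8, 34.9 and 35.8 CPM in WT, without overlap (log2 fold change -0.87, edgeR adjusted p = 0.546), while 8.6% of the genes tested in neurons had such an unadjusted p and 24.3% did not overlap. Among border-associated macrophages, which the driver also reaches, Il15 averaged 245 CPM in R241E and 260 CPM in WT.

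**Figure D5:**
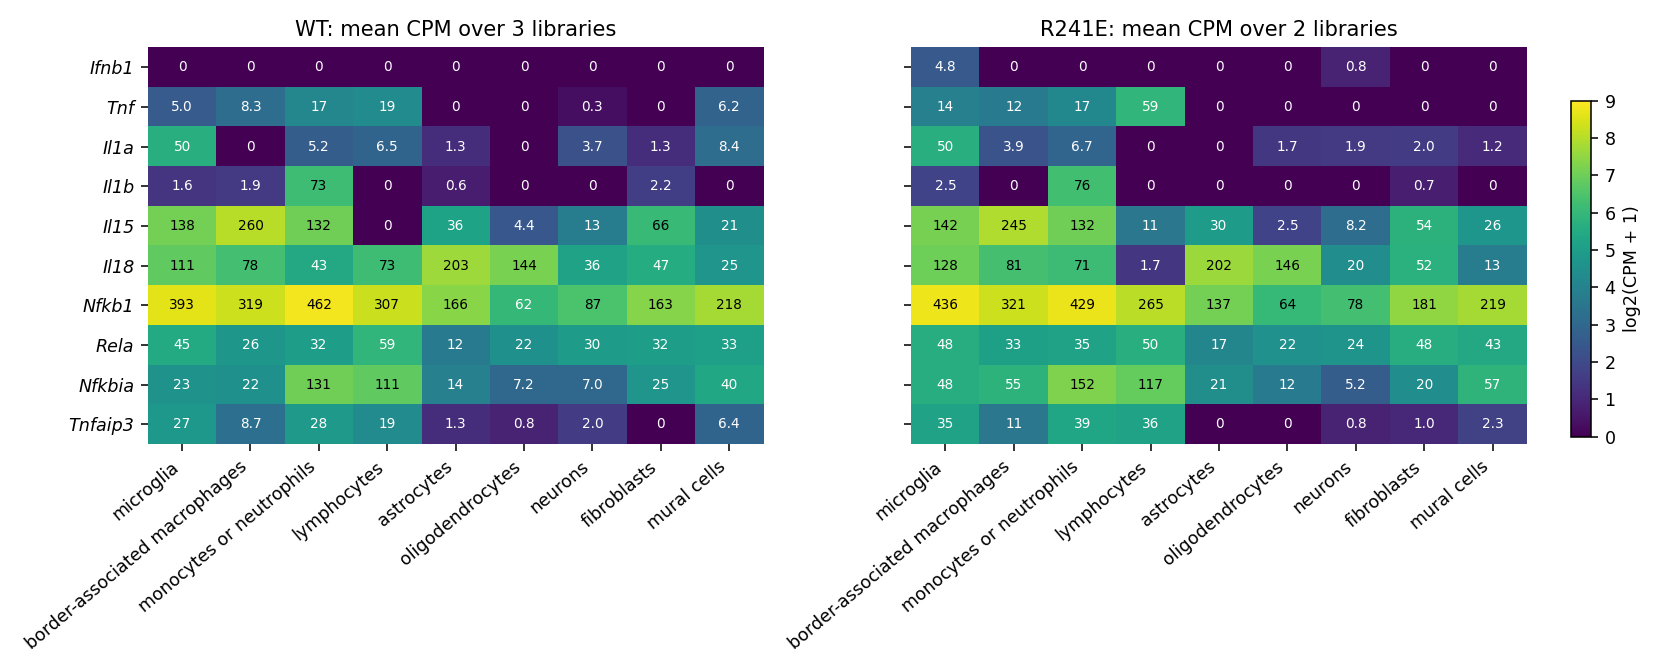
Mean CPM of the 10 genes (rows) in 9 cell classes (columns) for WT on the left and R241E on the right, coloured by log2(CPM + 1) with the mean written in each cell. Ifnb1 is at 0 in every WT class, Il1a is concentrated in microglia, Il15 is highest in border-associated macrophages and Il18 in astrocytes among the classes drawn.

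Genes whose level ran most like that of a member over 35 class-by-library sums (7 classes in 5 libraries, 16048 genes with at least 50 UMIs) were the following. For Il15 they were Swap70 (Pearson r = 0.92), Etv6 (0.916) and Zfp36l2 (0.911). For Il18 they were Qk (0.84), Tmcc3os (0.82) and Spef2 (0.809), and for Tnf they were Gm10521 (0.917), AI467606 (0.911) and Gm9888 (0.866). The points share libraries and classes, so these values are descriptions.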

How the data were processed

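Per the labels and the methods, the authors mapped 10x Genomics 3′ libraries with Cell Ranger 7.0.0 to mm10 and deposited raw UMI counts per gene and nucleus, with called nuclei only. Whether intronic reads or read strand were counted is not given in the sources used here. From these counts, nuclei with 200 to 4500 genes, under 10000 UMIs and a mitochondrial share under 5% were retained, and doublets were treated by the upper limits alone. The 9505 nuclei were clustered without integration (scanpy 1.11.5, 3000 variable genes, 30 principal components, 20 neighbours, Leiden resolution 1). A cluster took the class with the highest mean marker log2 fold over the median of the clusters, if that reached 2 and 3 markers were each in 10% of its nuclei. Names are rebuilt and stand for resemblance. Counts were summed per library and class and tested with edgeR 4.0.16 (quasi-likelihood, TMM, filterByExpr, Benjamini-Hochberg over all genes tested, called at an adjusted p under 0.05), with limma 3.58.1 and DESeq2 1.42.0 as alternatives. On simulated data 63% of 200 genes changed 2-fold were recovered in microglia, with 7 false calls among 12443 genes. With 2 against 3 libraries an exact permutation test cannot go below 0.1. Shares were compared after thinning nuclei to 1000 UMIs, leaving out shallower ones. Libraries held 4183709 to 10130667 UMIs. All members were named, and of each other list up to 4 called genes with the smallest p in each direction, or up to 2 where none was called. Members and lists were chosen with earlier results of these data known.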

Additional observations from a re-analysis of the deposited data

Results flagged for a closer look

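Il1b, the gene of interleukin 1 beta, was higher in interferon-high than in other microglia of both R241E libraries and was listed lower in all 3 WT libraries. In R241E it was at 4.16 against 0.577 CPM (6 and 1 UMIs) and at 5.65 against 1.12 CPM (3 and 1 UMIs). In WT it was at 0 in the interferon-high nuclei against 3.34, 0.714 and 0.941 CPM in the others. A count of 0 in those 25, 41 and 42 WT nuclei allows up to 49.4, 26.2 and 28.2 CPM (3 counts), so these values show no direction in WT. The mean difference was listed as 5.72 CPM larger in R241E, and this difference was not tested, because Il1b lay below the filter on low counts.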

How the results depend on the processing

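Microglial genes called numbered 1175 and, leaving out 1 library at a time, 539 (without R241E replicate 1) to 1548, with 751 without WT replicate 2, while members called, Ifnb1 included, ran from 1 to 2 (0 to 1 without it). With the replicate number as a replicate block they numbered 2093, members called 3 with Ifnb1 and 2 without it (Tnf at a log2 fold change of 1.199), and the medians of the interferon list and of the members other than Ifnb1 were 4.03 and 0.21, against 4.18 and 0.16. Libraries of the same number did not deviate together (correlations of 0.098 and -0.019), so the numbers were not taken as pairs. Leaving out libraries gave medians of 3.85 to 4.45 and 0.14 to 0.20. Without the interferon-led cluster, chosen after seeing the data, members called fell to 0, because Ifnb1 then had no counts and Nfkbia was not called, with medians of 3.05 and 0.090. In the split of microglia, 195 genes and 3 members, Ifnb1 included, were called. Leaving out libraries gave 84 (without R241E replicate 1) to 201 genes, with 99 without R241E replicate 2, and 0 to 3 members (0 to 2 without Ifnb1). With at least 2 list UMIs 0 members were called, and without the interferon-led cluster 20 genes and 0 members. Il15 in the split also lost its call without the filter on low counts (0.43). In other classes members called stayed at 0 under the alternatives run. DESeq2 called 809 microglial genes.

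Members near 0 changed sign. Il1a between genotypes was -0.0044 without the filter, -0.046 without the cluster and -0.28 to 0.17 leaving out libraries (-0.02 without WT replicate 1), and Il15 was -0.052 with the replicate block, -0.12 without the cluster and -0.024 to 0.10 leaving out libraries. In the split Il1a was -0.14 to 0.25 leaving out libraries and -0.00067 without the cluster, and Nfkb1 was -0.16 with at least 5 list UMIs. The thinned share of microglia with Il1a differed by -0.893 percentage points, by 0.880 without thinning, and by -2.10 to 0.309 leaving out libraries. For the changes not explained above the cause was not tested. Depth limits Ifnb1, Il1b and Tnf most: in a single WT library 3 microglial UMIs are 0.692 to 1.21 CPM.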
